A study of Mus musculus with 7 samples.

Results

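The bladder of the newborn mouse was compared with the whole newborn body, to describe which genes are enriched in the organ on postnatal day 1 and which read low in it. The comparison used 4 of the 7 arrays of the series: 3 arrays labelled as postnatal day 1 bladder and 1 array of whole newborns, chosen by their labels alone. The bladders came from male FVB/N pups (Theiler stage 27) carrying SMGA/EGFP, a transgene in which the promoter of smooth muscle gamma-actin (the product of Actg2) drives enhanced green fluorescent protein. Each bladder was dissected whole, frozen, stored in a freezer and not pooled. The reference was a pool of whole wild-type FVB/N newborns of the same stage, 4 males and 4 females, which the labels call a universal standard. Its title names bladders, but its source and protocol describe whole animals. The 3 other arrays were adult bladders of the same transgenic line (Theiler stage 28, kept in liquid nitrogen). They entered the estimate of the spread, and their values are given beside 1 gene. RNA of all samples went through 2 rounds of amplification before hybridization to Affymetrix MOE430 2.0 arrays.

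Tissue, transgene, sex and pooling all differ between the bladders and the reference, and their parts in a difference cannot be told apart. The reference has 1 array and no replicate, and the bodies in it include their own bladders. In whole tissue, fewer cells of a type and less RNA per cell cannot be told apart.

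As background, the bladder wall is made of a stratified urothelium, a collagen-rich lamina propria and the detrusor, a coat of smooth muscle that holds and expels urine. Urothelium covers its surface with plaques of uroplakins, membrane proteins that keep the barrier tight. Smooth muscle contracts through its own actin, myosin and regulatory proteins, whose genes are switched on by serum response factor (Srf) together with myocardin (Myocd) at a DNA element called the CArG box. During development the urothelium signals to the mesenchyme beneath it with Sonic hedgehog, and the muscle forms from that mesenchyme.

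Values are intensities divided by the median of their own array, so a value of 1 is the level of the middle probe set. Differences are on the scale of log2(value + 0.2), bladder minus whole newborn, from a limma fit with Benjamini-Hochberg adjustment, and are called where the adjusted p is under 0.05. Probe sets brighter than the array median on 1 or more of the 4 arrays were tested, which 28316 of 45037 probe sets and 13741 of 18194 genes did. The spread behind each p came from the 6 bladder arrays (4 residual degrees of freedom), which takes the reference to scatter as much as they do. Errors quoted with a difference are standard errors (SE).

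The choice of scale matters for the balance of this comparison. The array medians were 263, 209 and 290 in newborn bladders 1 to 3 and 434 in the reference, whereas the 2% trimmed mean was 1493 to 1495 on all 7 arrays. Dividing by the median therefore places the median of all genes tested 0.73 above 0, against -0.00 on the values as deposited and 0.19 after quantile normalization. A list of 12 housekeeping genes moved with it, with a median of 0.76 by the array median and -0.02 as deposited. Differences near 0.73 are therefore no more than the common shift, and a call that passed in the same direction on all 3 scales is named below as held under all 3 scalings. Reading the calls over the 3 scalings together was decided after their values were seen.

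**Figure D1:**
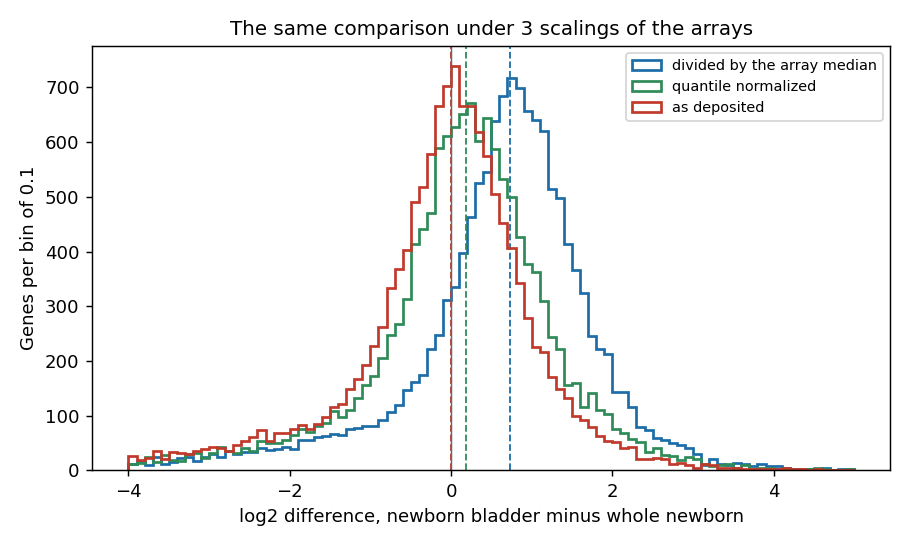
Number of genes (y axis, per bin of 0.1) by log2 difference between newborn bladder and whole newborn (x axis) for 13741 genes under 3 scalings of the arrays, with dashed lines at the medians. The medians lie at 0.73, 0.19 and -0.00, so the same genes sit further to the right when arrays are divided by their median.

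In all, 2294 of 13741 genes (16.7%) were called, 1577 higher in bladder (11.5%) and 717 lower (5.22%). Under all 3 scalings 1345 genes (9.79%) held, 632 higher (4.6%) and 713 lower (5.19%). Every count of called list members below stands against these shares of all genes tested. Of the calls 68.7% were higher by the array median, 36.4% as deposited and 50.5% after quantile normalization. The split between higher and lower genes is therefore set by the scaling. Nearly every lower call passed on all 3, but the other 2 scales shift differences downward, so a lower call could hardly be lost on them. Holding under all 3 scalings is therefore a test of the rises and not of the falls. By probe set, 2200 of 28316 (7.77%) were called, 1411 higher (4.98%) and 789 lower (2.79%). All 3 bladder arrays lay above the reference for 8818 genes (64.2%) and below it for 1926 (14.0%), and this balance also moves with the scaling: of all probe sets 45.5% lay above the reference in all 3 bladders by the array median and 22% as deposited. At a median SE of 0.54, the smallest rise called was 0.76 and the smallest fall -1.36, so many moderate differences were not detectable with 1 reference array. The number of called genes was 1423 without bladder 1, 1337 without bladder 2, 1531 without adult replicate 3 and 3942 without adult replicate 2. Newborn bladders correlated with each other at r of 0.936 to 0.948 across probe sets and with the reference at 0.847 to 0.867.

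The labels of the groups were checked on their markers. In the bladders Xist, the RNA that silences an X chromosome in females, read 0.993, 1.75 and 0.99 array medians, against 72.7 in the pool of both sexes (log2 difference -5.70 ± 0.71, adjusted p = 0.000691). The Y-linked gene Uty read 1.57, 3.28 and 1.91 against 0.11 (2.92 ± 0.53, adjusted p = 0.00583). Uty lay below the array median in the reference and was tested only through the bladder arrays, so the filter set its direction. The same holds for the Y-linked Kdm5d (1.79, adjusted p = 0.0267), which did not hold as deposited. Eif2s3y, a brighter Y-linked gene, read 18.4, 39.2 and 16.2 against 4.7 and did not pass (2.23, adjusted p = 0.0667). Without bladder 2 another probe set stood for Uty, with a difference of 0.56 and adjusted p = 0.461, and on all 3 bladders that probe set differed by 0.26. The reference read 237 array medians for the liver gene Alb and 247 for the epidermal keratin Krt10, against at most 13.6 and 4.65 in any newborn bladder. Markers of the male accessory glands, which adjoin the bladder neck, were at or below the array median in all 3 newborn bladders for 11 of 11 genes, and 2 of these 11 could be tested. The reference, a pool that includes whole males, was itself above its median for only 2 of the 11. Low values of these markers therefore cannot show whether gland tissue was taken along with the bladders.

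The largest rises are given first. Among the called genes whose 3 bladder arrays all lay above the reference, the largest difference was in Upk1b, which encodes a uroplakin of the tetraspanin family. Upk1b read 214, 262 and 221 array medians in bladders 1 to 3 against 2.05 in the whole newborn, a ratio of 113 between the bladder mean and the reference (log2 difference 6.69 ± 0.30, adjusted p = 4.9e-06). Its other probe sets differed by 4.80 to 6.85. Next was Cnn1, calponin of smooth muscle, at 97.3, 89.4 and 68.8 against 0.891 (6.28 ± 0.40, adjusted p = 2.94e-05). Upk3a, another uroplakin, read 85.7, 128 and 126 against 1.26 (6.26 ± 0.38, adjusted p = 2.91e-05). For each of these 3 genes the lowest bladder array lay far above the reference.

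Several genes of the 20 with the largest rises have no place in the lists of known bladder genes used here. Sptssb, a small subunit of the enzyme that starts sphingolipid synthesis, read 88.7, 120 and 73.6 against 1.05 (6.21). Gsdmc2, a gasdermin of epithelia, read 18.4, 65.8 and 39.1 against 0.384 (5.96), with the bladders spread over a wider range. Rhox5, a homeobox gene of the X chromosome known from the testis and epididymis, read 32.2, 40.1 and 24.4 against 0.347 (5.86). In the 3 adult bladders Rhox5 read 2.76 to 4.33. Snx31, a sorting nexin, read 27.3, 51.7 and 28.1 against 0.462 (5.70). The others outside those lists were Cldn23, a claudin (5.68), Nptx2, a neuronal pentraxin (5.26), Npy6r, a receptor of the neuropeptide Y family (5.24), Pmaip1, a promoter of apoptosis (5.08), and Mal, a membrane protein of epithelial sorting (5.0). All 20 of these rises held under all 3 scalings. Gsdmc2, Rhox5, Snx31 and Npy6r (0.0184) lay below the median in the reference. They were tested only through the bladder arrays, so the filter set their direction. The size of such differences also depends on the 0.2 added before taking logs, most of all for Npy6r. Npy6r was the gene of the 20 that lost its call in 2 of the settings tried.

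Smooth muscle contractile genes were called higher in the bladder in 27 of 27 cases, 23 of them under all 3 scalings, with a list median of 3.25 against 0.73 for all genes. For 5 of the 27 (Cnn1, Csrp1, Lmod1, Myl6 and Ppp1r14a) the reference lay below the array median, so they were tested only through the bladder arrays and the filter set their direction. The same holds for part of the other lists of bladder genes below. Actg2, the gamma-actin of smooth muscle whose promoter drives the transgene, read 291 ± 11.4 array medians in the bladders (SD, n = 3) which was 9.56 times the reference (3.25 ± 0.30, adjusted p = 0.000145). Myh11, the smooth muscle myosin heavy chain, read 235, 231 and 194 against 5.35 (5.31 ± 0.38, adjusted p = 4.63e-05). Tagln, the actin-binding protein transgelin, read 195, 170 and 163 against 5.64 (4.91 ± 0.30, adjusted p = 2.91e-05). Each bladder array exceeded the reference many times over for these 3 genes, and the bladders lay close together.

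Other proteins of the filaments and their anchors differed as strongly. Synm (synemin, an intermediate filament protein) read 193, 209 and 157 against 3.83 (5.52). Synpo2, which binds actin at the Z-disc and at dense bodies, read 165, 176 and 113 against 4.09 (5.12). Csrp1, a LIM protein, read 58.5, 86.1 and 28.9 against 0.82 (5.69), with bladder 3 the lowest. Pgm5, a component of adherens junctions in muscle, read 67.8, 52.7 and 46.7 against 1.7 (4.86). The light chain Myl9 (3.93) and its kinase Mylk (2.97) also held under all 3 scalings. So did the actin-binding proteins Lmod1 (3.60), Smtn (3.57), Flna (3.27) and Vcl (2.40), and the tropomyosin Tpm2 (2.25).

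The 4 contractile genes that did not hold on all scales were Des, Cald1, Acta2 and Tpm4. Acta2, the alpha-actin of smooth muscle, read 309, 300 and 319 against 109 on its brightest probe set (1.50 ± 0.26, adjusted p = 0.00446). As deposited, Acta2 differed by 0.71 with adjusted p = 0.272. Its 2 dimmer probe sets differed by 6.59 and 2.59. By rank of intensity among 45037 probe sets, the brightest Acta2 probe set stood at 13, 33 and 3 in the bladders and at 258 in the reference. The corresponding ranks were 23, 32 and 19 against 1583 for Actg2, and 184, 432 and 223 against 7889 for Tagln. The highest intensity on each array was 365, 389 and 330 array medians in bladders 1 to 3 and 262 in the reference, so the bladder values of Acta2 lay near the top of their arrays. Cald1, caldesmon, likewise read 304, 317 and 287 against 99.5 (1.60), and its other probe sets differed by 4.15, 3.71 and -0.80. The probe sets of Tpm1 also differed from each other, at 4.14, -0.25, -1.88 and 1.17, and its call rests on the first of them. Those of Tpm2 ran from -1.17 to 3.14, with 2 of 4 called higher. When a newborn bladder was left out another probe set stood for Tpm1, with adjusted p of 0.466 to 0.888. Tpm4 lost its call without bladder 1 (adjusted p = 0.111), bladder 2 (0.0896), adult replicate 1 (0.0753) or adult replicate 3 (0.0838). Probe sets of Actg2, Acta2, Csrp1, Smtn, Tpm2 and Cald1 can match several transcripts, and the actins in particular are close in sequence.

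Regulators of the muscle program were less uniform, with 5 of 15 higher, all 5 under all 3 scalings, and a median of 0.72 that equals the common shift (-0.07 as deposited). Myocd, the coactivator that defines the smooth muscle program, read 39.7, 22.8 and 61.3 against 1.67 (4.36 ± 0.61, adjusted p = 0.00147). Srf, its DNA-binding partner, read 39.5, 55 and 28.5 against 4.77 (3.0 ± 0.55, adjusted p = 0.00591). The other members called were Ppp1r12a, the targeting subunit of myosin phosphatase (3.51), Hspb6, a small heat shock protein (2.60), and Rock1, a kinase that promotes smooth muscle contraction (2.28), whose adjusted p was 0.0522 without bladder 1 and 0.0514 without bladder 2. Mef2c, a factor shared with striated muscle and brain, read 19.9, 31.3 and 12.8 against 51.2 and did not pass (-1.35, adjusted p = 0.16), while 1 of its 4 dimmer probe sets was called lower (-2.65).

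Because Myocd and Srf act at the CArG box, the promoters of the contractile genes were searched for it in the RefSeq sequences of GRCm38.p6. The element was spelled as CC, 6 bases that are each A or T, and GG, which reads alike on both strands, and the 250 bases before the gene's start were searched. It was found in 4 of the 24 contractile genes with a promoter in that table (16.7%), against 439 of all 27025 genes (1.62%). It occurred in 160 of 11026 genes tested here (1.45%), in 24 of 487 genes higher under all 3 scalings (4.93%) and in 14 of 565 lower genes (2.48%). Actg2, Myh11 and Tagln are not among the 24. The 4 elements follow in 40 bases of promoter each, 5′ to 3′ on the gene's strand, with the element in capitals, to show how close to one spelling they are.
Filip1l: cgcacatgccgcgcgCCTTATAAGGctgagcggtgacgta
Myl6: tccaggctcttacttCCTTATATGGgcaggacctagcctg
Myl9: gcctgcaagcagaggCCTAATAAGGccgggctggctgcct
Vcl: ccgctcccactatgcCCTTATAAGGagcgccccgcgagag

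These stretches lie at chr16:57549165-57549204 (plus strand, 38 to 77 bases before the start of Filip1l), chr10:128493035-128493074 (minus strand, 26 to 65 bases before Myl6), chr2:156775288-156775327 (plus strand, 137 to 176 bases before Myl9) and chr14:20929156-20929195 (plus strand, 203 to 242 bases before Vcl). Filip1l and Vcl carry the same element. Filip1l, a protein related to filamin binding, read 31, 34.2 and 24 array medians against 3.91 (2.85), Myl6, the essential light chain, 8.26, 7.93 and 6.58 against 0.753 (3.02), Myl9, the regulatory light chain, 212, 210 and 176 against 12.8 (3.93), and Vcl, the adhesion protein vinculin, 314, 330 and 225 against 54 (2.40). All 4 were higher in bladder under all 3 scalings. A match describes the letters of the promoter and is not a site shown to be bound.

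**Figure D2:**
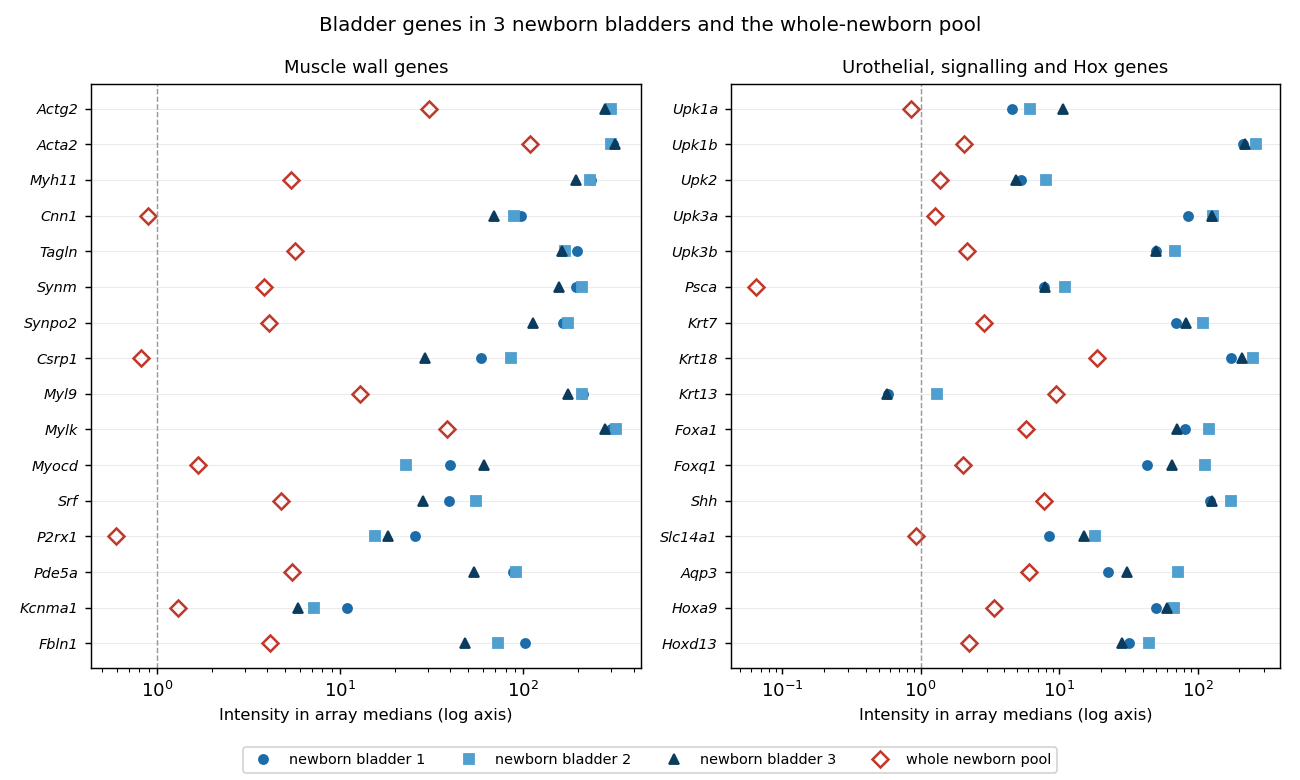
Intensity in array medians (x axis, log scale) of 16 muscle wall genes on the left and 16 urothelial, signalling and Hox genes on the right, with one symbol for each of the 3 newborn bladders and an open diamond for the whole-newborn pool. The dashed line marks the array median. The bladders lie to the right of the pool for every gene drawn except Krt13, where the pool read 9.46 and the bladders 0.574 to 1.31.

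All 6 uroplakin genes were called higher in the bladder, with a median of 3.64, and Upk1b, Upk3a and Upk3b held under all 3 scalings. Upk1a and Upk3bl lay below the array median in the reference and were tested only because they were brighter in bladder, so the filter set their direction. Upk3b read 56.5 ± 11 array medians (SD, n = 3) and 26.1 times the reference (4.57 ± 0.41, adjusted p = 0.000114). Upk1a, the tetraspanin that pairs with Upk2 in the plaque, read 4.56, 6.21 and 10.7 against 0.857 (2.71 ± 0.61, adjusted p = 0.0168). Upk2 read 5.26, 8.07 and 4.91 against 1.37 (1.96 ± 0.47, adjusted p = 0.0212). Upk3bl read 2.9 ± 0.786 (SD, n = 3; 1.99 ± 0.48, adjusted p = 0.0213). As deposited, the adjusted p was 0.0843 for Upk1a, 0.0688 for Upk2 and 0.1 for Upk3bl. Upk3bl had adjusted p = 0.0527 without bladder 2. For each of the 6 genes every bladder array exceeded the reference. Levels of different probe sets cannot be set against each other, so the dimmer values of Upk1a and Upk2 say nothing of their amounts relative to Upk1b.

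Keratins and junction genes of the urothelium were mixed. Of 20 genes 9 were higher, 8 of them under all 3 scalings, and 1 was lower, with a median of 1.70. Psca, a surface protein known from prostate and bladder epithelium, read 7.79, 11.1 and 7.87 against 0.0643 (5.09 ± 0.46, adjusted p = 0.000114). Krt7, a keratin of simple and transitional epithelia, read 70, 110 and 81.9 against 2.87 (4.81 ± 0.43, adjusted p = 0.000114). The other simple-type keratins were also higher: Krt19 by 3.82, Krt18 by 3.45 and Krt8 by 2.41, as were Krt15 (2.82) and the claudins Cldn8 (3.44) and Cldn4 (2.40). Cdh1, E-cadherin, differed by 1.76 but did not hold as deposited. Without bladder 2 the adjusted p was 0.0542 for Cldn8 and 0.0547 for Cdh1.

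Several keratins of stratified or mature epithelium were not higher. Krt5, a basal keratin, read 24.7, 45 and 40.5 against 20.8 (0.77, adjusted p = 0.239). Krt14, its partner in basal cells, read 9, 32.4 and 25.6 against 32.1 (-0.71), so that 1 bladder matched the reference. Krt13, the keratin of the upper layers of stratified mucosa, was the lower member at 0.577, 1.31 and 0.574 against 9.46 (-3.32 ± 0.60, adjusted p = 0.00563). Krt20, a marker of mature umbrella cells, read 3.81, 10.5 and 7.04 against 2.19 and did not pass (1.50, adjusted p = 0.0937).

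Of 15 transcription factors of the urothelium 7 were higher, 6 of them under all 3 scalings, 1 was lower and 7 did not pass, with a median of 1.71. Foxq1, a forkhead factor, read 43, 113 and 65.7 against 2.03 (4.94). Foxa1, which opens chromatin at urothelial genes, read 80.9, 121 and 71.1 against 5.76 (3.90). Grhl3, a driver of terminal differentiation, differed by 2.98, Gata3, a factor of luminal epithelia, by 2.82, the ETS factor Ehf by 2.71 and the nuclear receptor Pparg by 2.26. Trp63, the basal cell regulator, differed by 1.71 without holding as deposited, and its other probe set tested by -0.35. Tfap2a, which is prominent in epidermis, was lower at 2.37, 2.51 and 2.84 against 8.46 (-1.65 ± 0.47, adjusted p = 0.0386). Leaving out bladder 1, bladder 2 or adult replicate 3 ended the calls of Trp63 (adjusted p of 0.0568 to 0.074) and Tfap2a (0.0573 to 0.0807), and without adult replicate 1 Tfap2a had 0.0613.

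Of the transport genes known from the lining, 3 of the 8 tested, of 10 on the array, were higher and 1 was lower. Among all genes tested 11.5% were higher and 5.22% lower. Slc14a1 and Scnn1g lay below the array median in the reference and were tested only through the bladder arrays, and Aqp9 only through the reference. For these genes the filter set the direction. Slc14a1, a urea transporter, read 8.43, 18 and 15.2 against 0.928 (3.57 ± 0.59, adjusted p = 0.00339). Aqp3, a water and glycerol channel, read 22.4, 72.6 and 30.8 against 6.06 (2.57), and Scnn1g, a subunit of the epithelial sodium channel, 4.6, 7.66 and 5.14 against 0.857 (2.47). Aqp9, the aquaglyceroporin of liver, was the member that was lower, at 0.451, 0.366 and 0.0448 against 18.5 (-5.38 ± 0.64, adjusted p = 0.000526).

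Transcription factors of the bladder mesenchyme included higher T-box, homeobox and forkhead genes. Of 34 mesenchymal transcription factors on the array 31 were tested, and 15 were higher (9 under all 3 scalings) and none lower, with a median of 1.70. Tbx20 read 23.3, 60.4 and 34.3 against 1.29 (4.62 ± 0.73, adjusted p = 0.00284), and Tcf21, a basic helix-loop-helix factor of visceral mesenchyme, read 18.2 ± 1.78 (SD, n = 3) and 21.9 times the reference (4.15 ± 0.45, adjusted p = 0.000332). A dimmer Tcf21 probe set differed by 0.27. Meis1 (3.54), a Hox cofactor, Hand2 (3.31), Tbx2 (2.75), Gata5 (2.74), Tbx3 (2.58), Nr2f2 (2.58) and the hedgehog-responsive Foxf1 (2.33) made up the rest of the 9. Without bladder 1 and without bladder 2, the adjusted p was 0.0653 and 0.0781 for Nr2f2 and 0.0557 and 0.0573 for Foxf1. Isl1, a factor of early bladder mesenchyme, read 24.5, 23.5 and 12.8 against 5.85 and did not pass (1.70 ± 0.95, adjusted p = 0.21), whereas its dimmer probe set was called higher (2.48). Nr2f2 had 6 probe sets, from -0.80 to 2.58, and none was called when p was adjusted over probe sets. Nr2f2 was not alone in this. Among other genes named below as called, Hoxb13, Hoxc8, Erbb3, Cavin2, Avpr1a, Lox and Csf1r also had no probe set called that way.

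Hox genes are arranged in clusters whose order follows position along the body, with the posterior genes active toward the tail. Of 14 posterior Hox genes 10 were tested, 5 were higher (4 under all 3 scalings) and none lower, with a median of 1.62. Hoxd10 (0.934), Hoxa11 (0.847), Hoxb9 (0.528) and Hoxb13 (0.192) lay below the array median in the reference. They were tested only through the bladder arrays, so the filter set their direction. Hoxc13, which was not called, was tested only through the reference (1.01). Hoxa9 read 49.8, 67.2 and 60.4 against 3.38 (4.04 ± 0.46, adjusted p = 0.000367), although its dimmer probe set differed by 0.45. Hoxd13, the last gene of its cluster, read 31.9, 44.6 and 28.3 against 2.22 (3.83 ± 0.52, adjusted p = 0.00122). Hoxa10 (3.85), Hoxd10 (2.23) and Hoxb13 (1.97, not held as deposited) were the others. Of 19 anterior and middle Hox genes 11 were tested, with 1 higher (Hoxb3, 2.28), 1 lower (Hoxc8, -2.40) and a median of -0.24. Hoxb13 lost its call without bladder 1 (adjusted p = 0.0533) or bladder 2 (0.0529), and Hoxc8 without bladder 1 (0.0739), bladder 3 (0.0578), adult replicate 1 (0.0515) or adult replicate 3 (0.0502). The median of the anterior and middle list was 0.11 without bladder 1 and -0.09 without bladder 2. In that list 11 of 19 genes lay at or below the median in all 3 bladders.

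Of the hedgehog pathway, the ligand and an antagonist differed most. Shh, made by the urothelium, read 122, 173 and 127 array medians against 7.72 (4.14 ± 0.36, adjusted p = 9.75e-05). Hhip, a surface antagonist that is itself induced by the pathway, read 10.9, 13.1 and 5.55 against 0.635 (3.51 ± 0.64, adjusted p = 0.00594). The receptor Ptch1 (1.55) and the coreceptor Gas1 (1.48) were called by the array median and not on the other scales, with adjusted p = 0.135 for Ptch1 as deposited and 0.0544 to 0.0852 without any 1 newborn bladder or adult replicate 3 (0.0619). The transducers Smo (1.21), Gli2 (1.27) and Gli1 (1.19) did not pass on their brightest probe sets, although a dimmer one of Gli2 was called higher (2.42), and a dimmer one of Ptch1 differed by -0.83. By gene, 4 of 14 members were higher, 2 of them under all 3 scalings, with a median of 1.07. Over all genes tested the shares were 11.5% and 4.6%.

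Wnt and BMP genes gave a few calls each. Of 29 Wnt pathway genes tested (33 on the array), 9 were higher and 1 lower, with a median of 1.25. For this list and the next, the shares over all genes tested were 11.5% higher and 5.22% lower. The receptor Fzd1 (78.6, 82.6 and 56.6 against 9.93; 2.83) and the ligands Wnt2 (2.23) and Wnt5a (1.99) held under all 3 scalings, as did the lower member Wif1, a secreted inhibitor (-1.90). In the BMP and TGF-beta list 10 of 25 genes tested were higher and 1 lower, with a median of 1.26. The ligands Bmp5 (27.6, 73.8 and 39.7 against 6.13; 2.78) and Bmp4 (2.19) held together with Id1 (2.87), Id4 (2.46) and Id2 (2.11), targets of BMP signals. Inhbb, an activin chain, was lower (-1.44, and 0.60 on another probe set). Calls of Wnt5a, Wif1 and Inhbb were lost without bladder 1 (adjusted p of 0.057, 0.0916 and 0.103), bladder 2 (0.063, 0.0988 and 0.0724) or adult replicate 3 (0.0538, 0.0754 and 0.0885), and those of Wif1 and Inhbb also without adult replicate 1 (0.0613 and 0.0782) and of Inhbb without bladder 3 (0.0597). Of 14 FGF and EGF family genes tested limma called 0, with 5 at an unadjusted p under 0.05 and a median of 0.83. Retinoid pathway genes gave 2 higher of 13, close to the 11.5% of all genes tested that were higher. They were Aldh1a2 (2.35), which makes retinoic acid, and the receptor Rarg (1.67), and neither held as deposited. Rarg had adjusted p = 0.0613 without bladder 2 and 0.0541 without adult replicate 3.

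The receptors through which nerves and hormones act on the detrusor were led by a purinergic one. P2rx1, the ATP-gated channel of purinergic contraction, read 25.7, 15.6 and 18.3 against 0.594, or 33.4 times the reference (4.63 ± 0.63, adjusted p = 0.00122). Ptger2, a prostaglandin E receptor, read 14.9, 9.33 and 13.8 against 1.31 (3.07). The vasopressin receptor Avpr1a (2.45), the bradykinin receptor Bdkrb2 (2.12) and Ptger4 (2.07) were called and did not hold as deposited. This gives 5 of 14 tested (17 on the array) higher and none lower, where 11.5% of all genes tested were higher. The list median of 0.69 lies below the common shift of 0.73. Avpr1a and Ptger4 lost their calls without bladder 1 (adjusted p = 0.108 and 0.0783), bladder 2 (0.0547 and 0.0724) or adult replicate 3 (0.0524 and 0.0521), and Avpr1a without bladder 3 (0.0605). Chrm3, the muscarinic receptor that contracts the detrusor, was at 0.232 on average in the bladders and 0.0477 in the reference and was not tested.

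Ion channels set how readily the detrusor contracts and relaxes. The large-conductance potassium channel was represented by its pore Kcnma1 (10.9, 7.16 and 5.9 against 1.31; 2.39 on its brightest probe set, and from -2.10 to 1.48 without a call on the others) and its smooth muscle subunit Kcnmb1 (4.08, 1.71 and 2.6 against 0.201; 2.82). Cacna1c, the L-type calcium channel, differed by 2.46. In that list 7 of 20 genes tested were higher (3 under all 3 scalings), with a median of 0.85. Over all genes tested 11.5% were higher, and 4.6% under all 3 scalings. Pln, phospholamban of the heart and smooth muscle, was lower (-1.87). Kcnmb1 had adjusted p = 0.0518 without bladder 1, and Pln 0.0522 to 0.101 without any 1 newborn bladder, adult replicate 1 or adult replicate 3. In the nitric oxide and cyclic GMP list 3 of 7 were higher. Pde5a, which breaks down cyclic GMP, read 87.3, 91.2 and 53.9 against 5.43 (3.75 ± 0.43, adjusted p = 0.000394), and Mrvi1, a substrate of the cyclic GMP kinase, differed by 3.93. The kinase itself, Prkg1, differed by 1.87 without holding as deposited, and had adjusted p = 0.0502 without bladder 2. The coat proteins of caveolae divided: Cav2 (2.65) and Cavin3 (2.60) were higher on all scales, Cav1 (1.45) and Cavin2 (1.50) by the array median, and the striated muscle member Cavin4 was lower (-2.15). Cavin4 lost its call without bladder 1 (adjusted p = 0.0616), bladder 2 (0.063) or bladder 3 (0.0644), and Cavin2 without bladder 1 (0.0563) or bladder 2 (0.0635).

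Matrix genes are made by the lamina propria here and by skin and skeleton in the rest of the body. None of 21 fibrillar collagen and assembly genes held under all 3 scalings. By the array median 4 were called: Serpinh1, the collagen chaperone (1.98), Lox, the cross-linking enzyme (1.57), Col14a1 (1.4) and Col6a3 (1.24). None of the 4 passed without bladder 1 (adjusted p of 0.057 to 0.0913), and Lox did not without bladder 2 (0.0753) or adult replicate 3 (0.0538). Col1a1 read 148, 152 and 80.3 against 58.3 (1.06, adjusted p = 0.114), and Col3a1 read 365, 380 and 322 against 250 (0.50, adjusted p = 0.146), close to the top of each array. The list median was 0.96, against the common shift of 0.73, and 11.5% of all genes tested were higher.

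Elastic fibres and basement membranes are the other main matrices of the wall. The counts here stand beside 11.5% of all genes tested higher, and 4.6% under all 3 scalings. Fbln1, fibulin of elastic fibres and basement membranes, read 103, 72.6 and 47.7 against 4.15 (4.03 ± 0.54, adjusted p = 0.00108; its other probe sets differed by 2.53 and -0.28), and with Efemp1 (2.28) and Ltbp1 (2.19) it made 3 of 14 elastic fibre genes, all under all 3 scalings. The basement membrane list had 8 of 18 higher, and the collagen IV chains Col4a6 (3.03) and Col4a5 (2.36) and the laminin chain Lama5 (2.42) held. Ogn (2.10) and Thbs2 (2.09) held among matrix proteoglycans and glycoproteins (7 of 18 higher), and the integrins Itga9 (2.96) and Itga1 (2.85) among 5 of 14. Without bladder 1 and without bladder 2, the adjusted p was 0.057 and 0.053 for Ltbp1 and 0.0566 and 0.0513 for Col4a6.

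Other cell types of the wall were measured by their markers. Rgs5, a pericyte gene, read 177, 238 and 153 against 15.7 (3.55 ± 0.37, adjusted p = 0.000245), the 1 of 5 pericyte genes tested that passed. Endothelial genes gave 0 of 18 by limma in either direction, with 1 at an unadjusted p under 0.05 and a median of 0.37 (0.22 without bladder 1). Upk3b is also a marker of mesothelium, the outer covering of the organ, and of 5 mesothelial genes tested it was higher with Wt1 (1.85, not held as deposited), while Gpm6a was lower (-4.84). Peripheral neuron genes gave 4 higher of 26 tested, close to the 11.5% of all genes tested that were higher. Gata2 (2.59) held under all 3 scalings, while the peptide gene Tac1 was lower (-3.94). Of 10 Schwann cell and glia genes tested 1 was higher (Erbb3, 1.55, not held as deposited), also close to that share. Of 6 interstitial cell markers 1 was called, Thbs4, which was lower at 0.798, 0.88 and 0.493 against 10.5 (-3.56, adjusted p = 0.00276). Thbs4 was tested only through the reference, so the filter set its direction. Ano1 (1.4), Cd34 (1.17), Kit (1.02), Pdgfra (0.87) and Gja1 (-0.97) did not pass, although another Pdgfra probe set was called higher (2.64). Macrophage genes gave 0 higher and 2 lower of 15 (Lyz2 and Csf1r, both -1.83), and mast cell genes 2 lower of 5 (Cma1, -2.47, and Cpa3, -2.71). Lyz2 and Csf1r lost their calls without bladder 1 (adjusted p = 0.0659 and 0.0562), bladder 3 (0.0529 and 0.0568) or adult replicate 3 (0.0668 and 0.064), Lyz2 also without adult replicate 1 (0.0539) and Csf1r without bladder 2 (0.0581). Cpa3 had 0.0724 without bladder 2. Without bladder 1, bladder 2, adult replicate 1 or adult replicate 3 the adjusted p was 0.0577 to 0.0852 for Wt1 and 0.0701 to 0.0834 for Erbb3.

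Genes of cell division are active throughout the newborn body. Of 24 mitosis genes 4 were called higher, where 11.5% of all genes tested were, and none held under all 3 scalings. In 22 of the 24 all 3 bladders lay above the reference, as they did for 64.2% of all genes tested. Such a balance moves with the scaling. The list median was 1.17 against the common shift of 0.73. Mki67, a marker of dividing cells, read 33.4, 27.7 and 54.4 against 32.6 and did not pass (0.18). Of 23 DNA replication genes tested limma called 0, with 2 at an unadjusted p under 0.05 and a median of 0.53 (0.27 without bladder 2). Of 21 imprinted and growth genes, Igf2r, the receptor that clears Igf2, read 70.3, 51.7 and 37 against 6.34 (2.97 ± 0.63, adjusted p = 0.0127; 0.57 on another probe set) and held, whereas Igf2 read 53.2, 43.2 and 48.3 against 100 (-1.05, adjusted p = 0.158). Of 4 steroid receptor and androgen genes tested limma called 0, and 0 had an unadjusted p under 0.05.

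**Figure D3:**
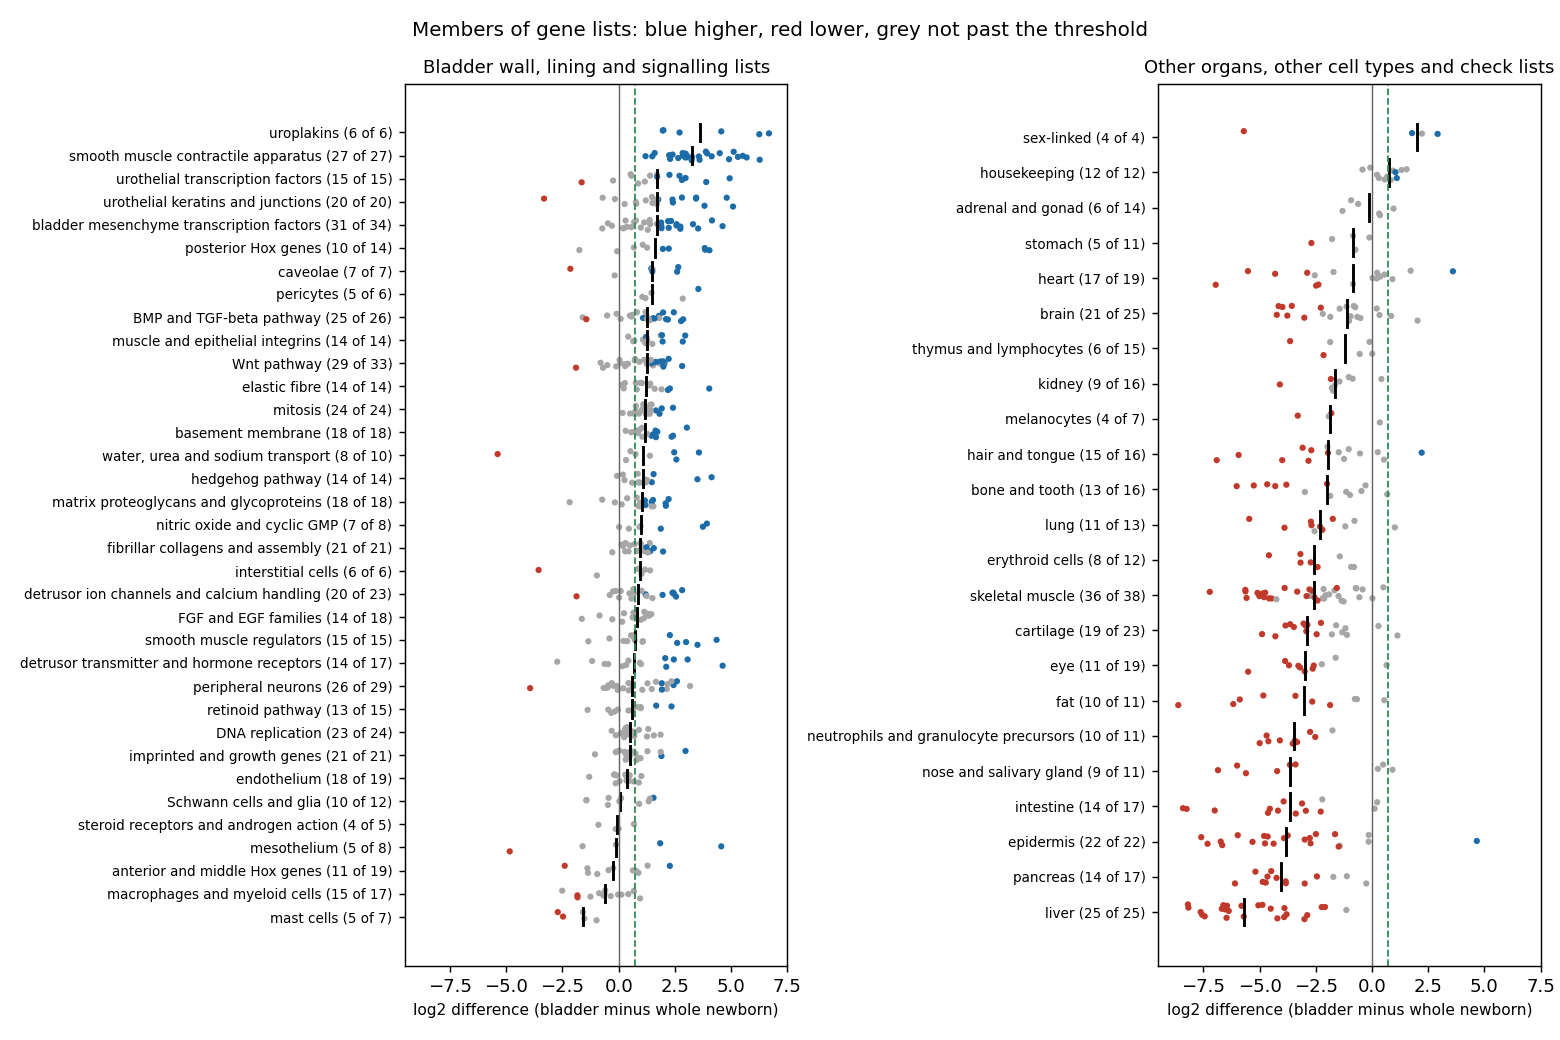
Log2 difference between newborn bladder and whole newborn (x axis) for the tested members of gene lists (rows, with tested of on the array), one point a gene: blue called higher, red called lower, grey not past the threshold. Black bars mark list medians and the green dashed line the median of all genes tested, 0.73. Uroplakins (3.64) and the contractile apparatus (3.25) have the highest medians among the bladder lists on the left, and liver (-5.70) the lowest among the lists on the right.

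Genes known from other organs were described in the same way. For a gene that passed the filter only because it was bright in the reference, the direction was set by the filter, so the counts below describe the lists and support nothing further. Among all genes tested 827 (6.02%) lay at or below the array median in all 3 bladders, and 492 (3.58%) were also called lower. The 20 largest falls were led by liver, brown fat and gut genes, followed by skin and salivary gland genes. Kng1, the kininogen of liver, read 0.0278, 0.0173 and 0.73 array medians against 145 (-8.66 ± 0.77, adjusted p = 0.000114). Ucp1, the uncoupling protein of brown fat, read 0.03, 0.0207 and 0.0475 against 90.8 (-8.61 ± 0.70, adjusted p = 8.05e-05). Fabp1, the fatty acid binding protein of liver and intestine, read 0.11, 0.0228 and 1.02 against 148 (-8.40), and Apoa4, an apolipoprotein of intestine, 0.0595, 0.666 and 0.0508 against 116 (-8.24). Among these 4 genes the bladder values ran from 0.0173 to 1.02 array medians, and where they are this low the size of a difference depends on the 0.2 added.

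Liver genes were lower in 24 of 25 cases, with a median of -5.70, and 11 of the 25 lay at or below the median in all 3 bladders. Alb, albumin, read 1.15, 0.577 and 13.6 against 237 (-6.61 ± 1.19, adjusted p = 0.00563), with bladder 3 the highest. Ttr, transthyretin, which carries thyroid hormone, read 22, 6.93 and 15.6 against 189 (-3.80), and Tdo2, an enzyme of tryptophan breakdown, did not pass (-1.14, adjusted p = 0.152). The summed level of the 25 genes was 37.6, 19.7 and 76.3 in bladders 1 to 3 and 1803 in the reference.

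Genes of the gut, its glands and other inner organs were tested less often, since many lay below the median in all 4 arrays. Pancreas genes were lower in 11 of 14 tested (17 on the array, 13 of them at or below the median in all 3 bladders), with a median of -4.04, and Cela1 did not pass (-0.25). Intestine genes were lower in 11 of 14 tested (17 on the array), with a median of -3.66. Stomach genes gave 1 lower of 5 tested and 11 on the array. Lung genes were lower in 7 of 11 tested, with Sftpc, a surfactant protein, at -5.46. The kidney, which shares the urinary tract, gave 2 lower of 9 tested and 16 on the array, Umod (-4.09) and Slc12a1 (-1.82), and 12 of the 16 lay at or below the median in all 3 bladders. Slc12a1 had adjusted p of 0.0525 to 0.059 without bladder 1, bladder 2, adult replicate 1 or adult replicate 3. Nose and salivary gland genes gave 6 lower of 9, including Bpifa2, a parotid protein, at 0.509, 0.65 and 0.53 against 87.4.

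Epidermis is a stratified epithelium like the urothelium but ends in a dead, cornified layer. Of 22 epidermal genes 18 were lower, with a median of -3.83: Krt10, the keratin of the layers above the basal one, read 2.91, 4.65 and 3.85 against 247 (-5.97), Flg, filaggrin, 0.0201, 0.0194 and 0.125 against 48.1 (-7.59), and Krt1 differed by -4.80. The exception was Ivl, involucrin, a precursor of the cornified envelope, at 102, 163 and 97.2 against 4.43 (4.67 ± 0.47, adjusted p = 0.000194), which held under all 3 scalings. Hair and tongue genes were lower in 7 of 15 tested, such as Krt25 (-6.90) and Krt27 (-5.93), and the homeobox gene Msx2 was higher (2.21) without holding on all scales.

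Lists of skeleton, fat, blood and brain genes held both called and uncalled members. Cartilage genes were lower in 12 of 19 tested, with Col2a1, the collagen of cartilage, at 0.992, 0.239 and 0.168 against 16.9 (-4.89), while the factors Sox5 (1.14) and Sox9 (0.29) did not pass. Bone and tooth genes were lower in 6 of 13, with Ibsp at -6.02 and Dmp1 at -5.25. Of 10 fat genes tested 7 were lower (Adipoq, -6.17, Plin5, -5.88, Cidea, -4.83), but Fabp4, which endothelium also makes, read 152, 240 and 137 against 117 and did not pass (0.55). Erythroid genes were lower in 5 of 8 and neutrophil genes in 9 of 10, with the granule genes Camp (-4.99), Ltf (-4.68) and S100a8 (-4.60) among them. Eye genes were lower in 8 of 11 tested, thymus and lymphocyte genes in 2 of 6 and melanocyte genes in 2 of 4. Brain genes were lower in 7 of 21 tested, and Dcx, a protein of young neurons, read 10.3, 12.8 and 7.46 against 16.8 without passing (-0.74).

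Striated muscle genes did not move as one. Of 36 skeletal muscle genes tested (38 on the array) 19 were lower and none higher, with a median of -2.60: Pgam2, an enzyme of muscle glycolysis, read 0.0842, 0.165 and 0.111 against 47 (-7.21), Myh4, a fast myosin of older muscle, differed by -5.62 and Mb, myoglobin, by -4.86. Yet Acta1, the actin of skeletal muscle, read 246, 175 and 238 against 214 (0.02, adjusted p = 0.965), Tnnt1, the slow troponin T, 26.9, 23.9 and 28.1 against 18.4 (0.51) and Ckm, muscle creatine kinase, 28.9, 24.3 and 32.8 against 42 (-0.56). The bladders lay on both sides of the reference for Acta1, above it for Tnnt1 and below it for Ckm.

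Heart genes also went both ways, with 6 lower and 1 higher of 17 tested. Tnnt2, cardiac troponin T, was the higher member at 175, 224 and 187 against 15.8 (3.60 ± 0.69, adjusted p = 0.00743), and it held under all 3 scalings. The other probe sets of Tnnt2 differed by 3.76 and 0.63. Actc1, cardiac actin, read 247, 223 and 234 against 124 (0.91, adjusted p = 0.176), and the light chain Myl4 read 87.8, 80 and 59.4 against 22.5 (1.73, adjusted p = 0.126). The ventricular light chain Myl2 (-6.95) and the myosin Myh6 (-5.51) were lower.

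**Figure D4:**
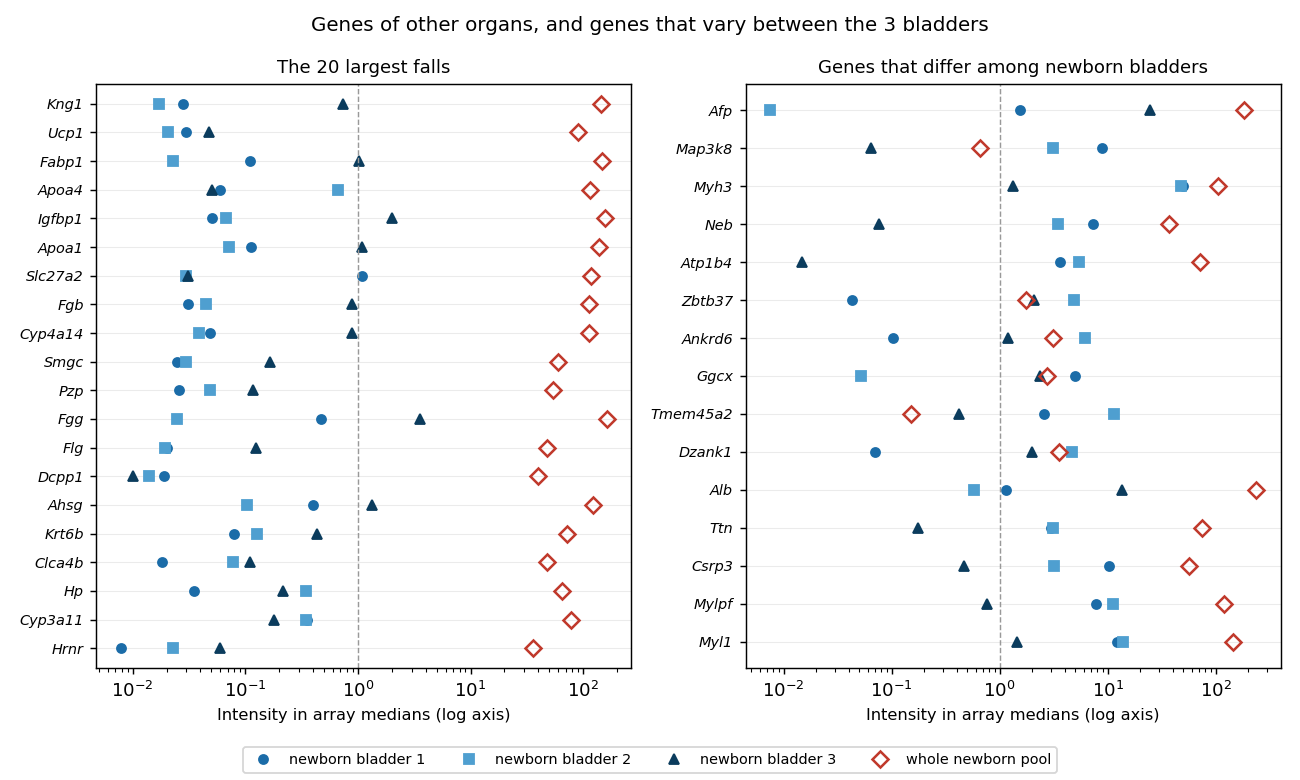
Intensity in array medians (x axis, log scale) of the 20 largest falls on the left and of 15 genes that differ among the newborn bladders on the right, with one symbol for each bladder and an open diamond for the whole-newborn pool. On the left all bladders lie below 4 array medians and the pool above 36. On the right, liver genes such as Afp are highest in bladder 3 and striated muscle genes such as Myh3 lowest there.

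Of the 10 genes with the widest range among the 3 newborn bladders, Afp is a liver gene and Myh3, Neb and Atp1b4 are known from striated muscle, and Map3k8, Zbtb37, Ankrd6, Ggcx, Tmem45a2 and Dzank1 belong to neither. Afp, alpha-fetoprotein of fetal liver, read 1.53, 0.00752 and 24.9 against 184 (-6.47 ± 1.82, adjusted p = 0.0374, or 0.0771 without bladder 1), and Igfbp1 and Fgg were also highest in bladder 3. Myh3, the embryonic myosin heavy chain, read 49.8, 48 and 1.34 against 104 (-2.75 ± 1.52, adjusted p = 0.206), and Neb, nebulin, 7.33, 3.44 and 0.0763 against 37.1 (adjusted p = 0.0837). Bladder 3 was the lowest for both, as it was for Ttn (2.96, 3.1 and 0.177 against 75.2), Mylpf (7.81, 11.1 and 0.758 against 119), Myl1 (12.2, 13.8 and 1.44 against 145) and Csrp3 (10.3, 3.16 and 0.467 against 56.5). Csrp3 was called lower, but not without bladder 2 (adjusted p = 0.0639). Acta1, Tnnt1 and Ckm, in contrast, were as high in bladder 3 as in the others. Myh8, another striated myosin, was lowest in bladder 1, at 13.6, 35.6 and 30.7. Nor was every liver gene highest in bladder 3, since Ttr was highest in bladder 1. The summed level of the skeletal muscle list was 568, 521 and 430 in bladders 1 to 3 and 1657 in the reference. Acta1 alone gave 246, 175 and 238 of the bladder sums and 214 of the reference sum, so the bladder sums rest in large part on 1 gene. The summed levels of the liver list, given above, were also unequal, and the part of liver or striated muscle tissue in these spreads was not tested. Map3k8, a kinase of inflammatory signalling, also spread widely, at 8.9, 3.12 and 0.0642 against 0.666. Leaving out bladder 3 gave 2387 called genes, close to the 2294 with it.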

How the data were processed

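The deposited values are linear intensities of 45101 probe sets; GCOS is named in the submitters' processing notes. Its version, the summary method, the scaling target and detection calls were not given in the sources used here. After 64 Affymetrix controls were left out, 34945 of 45037 probe sets named 1 gene, 932 several and 9160 none; 34741 were matched to RefSeq symbols (GRCm38.p6) by Entrez ID, and 204 kept their older symbol. The probe set with the highest mean log2 value over the 4 arrays compared stood for its gene. Most of these arrays are bladders, so the choice leans toward probe sets that are bright in bladder. By the array median, the median difference was 0.57 over tested probe sets and 0.73 over tested genes. The part of this choice in that gap was not tested. With the mean of probe sets instead, 1331 genes were called higher and 716 lower, against 1577 and 717 as reported.

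Intensities were divided by the array median, and log2(value + 0.2) was fitted with limma 3.58.1 in R 4.3.3 (lmFit, eBayes with a trend, two-sided, Benjamini-Hochberg under 0.05), 7 arrays in 3 groups. The labels describe 1 unpooled sample for each bladder array and name no animals, so a p-value measures only the spread between these samples, which may be technical. In simulated data of this design, planted log2 differences of 2, 3 and 4 were called in 17.5%, 44.0% and 55.0% of probe sets, and 4 of 26141 unchanged ones were called.

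The rule for named genes took the 20 largest differences in each direction that were called with all bladder arrays on 1 side of the reference (clone names left out), list members by adjusted p or level, actin, sex-linked and housekeeping genes, the 10 genes at or below the median in bladder with the highest reference level, and the 10 most variable among newborn bladders. Other list members named, and probe set values, were chosen after their values were seen. The members and lists were chosen with earlier results of these data known. Alternatives were the values as deposited, quantile normalization, other added constants, filters and variance settings, array weights, a 2-fold minimum, 4 arrays only, the mean of probe sets, and leaving out each bladder array.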

Additional observations from a re-analysis of the deposited data

How the results depend on the processing

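The 20 largest falls and the 10 genes at or below the median in bladder with the highest reference level kept their direction and call in every alternative in which they were tested, and the 20 largest rises in 358 of 360 combinations of gene and alternative. As deposited, 656 genes were higher and 1148 lower, with 1373 calls shared with the reported 2294, and after quantile normalization 1025 and 1003, with 1706 shared. Called genes numbered 505 with a 2-fold minimum and 5573 with array weights, and called probe sets 499 and 6690, or 1427 with the 4 arrays alone. Leaving out 1 array gave 1111 to 4253 probe sets and 1337 to 3942 genes. The highest counts came without adult replicate 2, at 4253 and 3942. The lower counts came without newborn bladder 1 (1199 and 1423), newborn bladder 2 (1140 and 1337), adult replicate 1 (1380 probe sets) and adult replicate 3 (1111 and 1531). Lower genes at or below the median in bladder numbered 230 with the 2-fold minimum. Higher genes at or below the median in the reference numbered 339, against 162 as deposited, 54 with the 2-fold minimum, 675 with array weights, 174 and 220 without newborn bladder 2 and 1, and 460 without adult replicate 2. The share of probe sets above the reference in all bladder arrays was 45.5%, against 22% as deposited, 37.0% after quantile normalization, and 50.0% to 53.5% with 1 bladder left out, where fewer arrays need to agree. List medians changed sign for smooth muscle regulators (-0.069), detrusor receptors (-0.054) and housekeeping genes (-0.025) as deposited, for retinoid genes (-0.0062) after quantile normalization and for male accessory glands (0.11) without a filter. Gnal differed by 0.50 as reported and -1.91 as deposited, and Tpm1 by -0.08, -0.30 and -0.37 without newborn bladder 1, 2 and 3 (4.14 without any 1 adult array), where another probe set stood for the gene. The cause of the other changes was not tested. No paired analysis was possible because the replicate numbers were given in accession order. Without detection calls, values far below the array median have no known order.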
